A study of Rattus norvegicus with 13 samples.

Results

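Heat shock proteins and cytosolic chaperones were followed as a list of 39 genes, each found by its symbol in the 3 count tables of rat heart RNA, which together list 41182 gene names. All 39 were listed in the tables of 6 and 8 months, and 38 in that of 2 months, where St13 was not listed. By role the list held 7 HSP70 genes, 3 HSP110 genes, 7 small heat shock protein genes, 2 HSP90 genes with 4 of their co-chaperones, 7 J-domain genes, 3 mitochondrial chaperone genes, 4 HSP70 co-chaperone genes and 2 heat shock factor genes.

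Bulk RNA-seq was made from total RNA of heart tissue in 13 libraries. The sonogenetic hearts (ST) were transduced with AAV2/9-cTnT-MscL-G22S-mCherry, an adeno-associated virus in which the cardiac troponin T promoter, active in heart muscle cells, drives MscL-G22S, a mutant of a bacterial mechanosensitive channel, together with the red fluorescent protein mCherry. Control hearts (WT) are labelled with no treatment, so the virus, mCherry and the channel cannot be told apart. The groups held 2 ST and 2 WT hearts of 2 months, 3 ST and 3 WT hearts of 6 months, and 3 ST hearts of 8 months, with no WT hearts analysed here at 8 months, all labelled as biological replicates. The labels do not state whether months are age or time since transduction, nor whether ultrasound was applied.

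The libraries held 6.54 to 11.3 M counts each (2 months), 6.72 to 8.49 M (6 months) or 4.70 to 5.57 M (8 months). The transgene was read in all 8 ST libraries at 11.0 to 209 CPM (counts per M counts) and had 0 counts in every WT library, where 3 counts, the limit that a count of 0 allows, are 0.345 to 0.459 CPM. Cardiomyocyte markers were abundant in all libraries, with a summed level of 89487 to 94130 CPM in ST and 96640 to 103886 CPM in WT hearts of 6 months, and 102593 to 103791 CPM in ST hearts of 8 months. In whole hearts, fewer cells of a type and less RNA per cell cannot be told apart.

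Chaperones bind unfolded proteins and help them to fold. HSP70 works in cycles: J-domain proteins hand it a client and start ATP hydrolysis, and HSP110 and BAG proteins release the nucleotide, after which some clients pass on to HSP90. Small heat shock proteins hold unfolding proteins without ATP, and in heart muscle several of them sit on the sarcomere. Many of these genes are switched on by heat shock factor 1 (Hsf1), which as a trimer binds heat shock elements, head-to-head and tail-to-tail repeats of the letters GAA.

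The promoters show which members carry that element close to the gene start. RefSeq promoters of assembly GRCr8, 250 bases before to 50 after each start, matched 31 of the 39 members. The 2-unit pattern searched was GAANNTTC or TTCNNGAA, and the 3-unit element was 3 units in a row, GAA and TTC in turn with NN between neighbours, starting with either. The 3-unit element was present in 6 of these 31 (19.4%), against 0.798% of 33469 promoters in the table, and the 2-unit pattern, which every 3-unit element contains, in 17 of 31 (54.8%), against 15.9%. On the other strand each pattern reads as itself or as its partner, so both strands were covered. The windows below are those of 5 of the 6 members with a 3-unit element, in capitals, followed by Hspb1 and Dnajb1, whose windows hold only 2-unit patterns, in capitals. The sixth member, Hspd1, starts next to Hspe1 in the opposite direction, and their windows share 211 bases and the same element.
Hsph1 (chr12:10427118-10427417, plus strand): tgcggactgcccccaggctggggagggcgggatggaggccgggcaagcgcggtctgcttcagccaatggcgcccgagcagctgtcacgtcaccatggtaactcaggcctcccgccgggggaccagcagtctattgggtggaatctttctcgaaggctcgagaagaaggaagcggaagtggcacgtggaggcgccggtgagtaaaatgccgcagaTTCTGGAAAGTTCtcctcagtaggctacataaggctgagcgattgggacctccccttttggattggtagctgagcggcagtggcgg
Hspa8 (chr8:50080264-50080563, plus strand): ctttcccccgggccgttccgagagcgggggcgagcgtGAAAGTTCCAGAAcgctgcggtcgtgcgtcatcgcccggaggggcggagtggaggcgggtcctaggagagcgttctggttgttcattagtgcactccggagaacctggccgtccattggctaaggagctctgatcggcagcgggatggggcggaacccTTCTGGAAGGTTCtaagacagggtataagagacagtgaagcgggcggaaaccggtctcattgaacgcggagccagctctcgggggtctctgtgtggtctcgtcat
Dnaja1 (chr5:60638154-60638453, plus strand): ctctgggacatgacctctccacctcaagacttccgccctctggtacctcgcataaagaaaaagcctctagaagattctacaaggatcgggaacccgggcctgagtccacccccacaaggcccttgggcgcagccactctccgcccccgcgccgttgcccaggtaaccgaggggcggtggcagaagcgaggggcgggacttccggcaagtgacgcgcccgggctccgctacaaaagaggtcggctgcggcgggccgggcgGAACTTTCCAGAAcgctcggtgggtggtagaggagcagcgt
Chordc1 (chr8:23650571-23650870, plus strand): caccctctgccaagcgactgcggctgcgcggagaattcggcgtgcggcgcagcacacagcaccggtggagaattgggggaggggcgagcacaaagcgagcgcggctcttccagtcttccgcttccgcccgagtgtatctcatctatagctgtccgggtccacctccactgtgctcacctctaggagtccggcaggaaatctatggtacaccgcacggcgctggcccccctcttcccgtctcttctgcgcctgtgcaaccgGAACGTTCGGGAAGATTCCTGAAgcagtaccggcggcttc
Hspe1 (chr9:64084077-64084376, plus strand): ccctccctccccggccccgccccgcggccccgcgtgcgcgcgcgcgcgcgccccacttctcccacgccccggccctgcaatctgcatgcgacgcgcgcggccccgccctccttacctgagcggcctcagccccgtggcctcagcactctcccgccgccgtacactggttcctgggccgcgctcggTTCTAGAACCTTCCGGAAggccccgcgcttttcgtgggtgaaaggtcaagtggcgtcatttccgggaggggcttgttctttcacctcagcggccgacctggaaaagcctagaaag
Hspb1 (chr12:26432252-26432551, minus strand): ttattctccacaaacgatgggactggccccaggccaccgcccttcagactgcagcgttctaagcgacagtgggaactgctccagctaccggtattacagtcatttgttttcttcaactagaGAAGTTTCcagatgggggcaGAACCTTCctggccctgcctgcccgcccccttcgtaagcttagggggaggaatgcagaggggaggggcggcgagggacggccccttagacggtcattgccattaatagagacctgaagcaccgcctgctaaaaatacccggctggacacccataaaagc
Dnajb1 (chr19:41431092-41431391, minus strand): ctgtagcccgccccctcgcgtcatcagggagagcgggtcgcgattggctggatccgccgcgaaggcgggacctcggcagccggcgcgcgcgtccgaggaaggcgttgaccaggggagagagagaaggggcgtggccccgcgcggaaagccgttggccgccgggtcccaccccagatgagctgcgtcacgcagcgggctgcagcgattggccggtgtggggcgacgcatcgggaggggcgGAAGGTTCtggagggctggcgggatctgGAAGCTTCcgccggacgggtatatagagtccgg

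The elements of Hspa8 began at -213 and -55 bases from the start, that of Hsph1 at -36 and that of Hspe1 at -65, while those of Dnaja1 and Chordc1 began after the start, at 10 and 11. The window of Hspa1a held neither pattern. That says only that these letters are not in this window. A match is a description of the letters and not of a bound site.

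**Figure D1:**
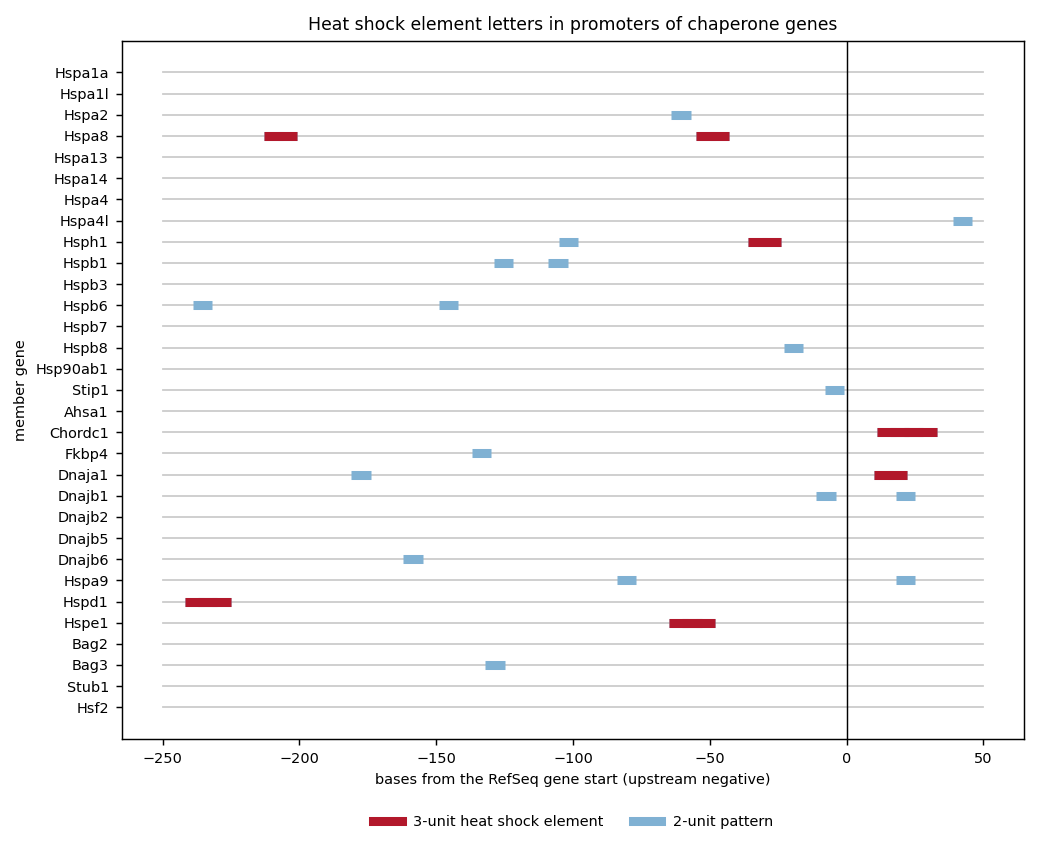
Positions of heat shock element letters in the RefSeq promoters of the 31 matched members, with distance from the gene start in bases on the x axis and 1 row for each member. Red bars mark 3-unit elements, present in 6 members, and blue bars mark 2-unit patterns outside them.

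At 6 months most of the list was higher in ST than in WT hearts. Of 39 members tested, 30 were higher and 0 lower by the quasi-likelihood test of edgeR with Benjamini-Hochberg adjustment over all genes at 0.05, where 19.9% of 13253 genes were higher, 20.1% lower and 40% changed in either direction. At an unadjusted p under 0.05, met by 48.5% of genes, 32 members were higher and 0 lower, and DESeq2 called 30 higher and 0 lower. The median log2 fold change was 0.52 over the members and -0.0016 over all genes tested. In 33 members every ST heart lay above every WT heart, where the groups did not overlap, in either direction, for 51.7% of genes. With scaling by library totals alone, which moved the median of all genes to -0.12, 25 members were higher and 1, Hspb2, lower.

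At 8 months the ST hearts stood lower than those of 6 months. Against ST hearts of 6 months, 25 of 39 members were lower and 5 higher, where 20.5% of 12931 genes were lower, 19.1% higher and 39.6% changed, and the median log2 difference was -0.36 over the members and 0.02 over all genes. Against WT hearts of 6 months, 15 members were higher and 1 lower, where 17.8% of 13095 genes were higher, 16.1% lower and 33.9% changed, and the median was 0.14 over the members and -0.0081 over all genes. Values did not overlap in 30 members between the ST groups, against 51% of genes, and in 21 members between ST of 8 and WT of 6 months, against 46.7% of genes. These comparisons share libraries with each other and with that of 6 months, and time, table and, in the second, group cannot be told apart. Without ST replicate 3 of 8 months 9 members were higher than in WT hearts of 6 months, and with library totals alone 11 were higher and 4 lower. Without ST replicate 1 of 6 months 2 members were higher at 8 than at 6 months, and with DESeq2 3 were.

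**Figure D2:**
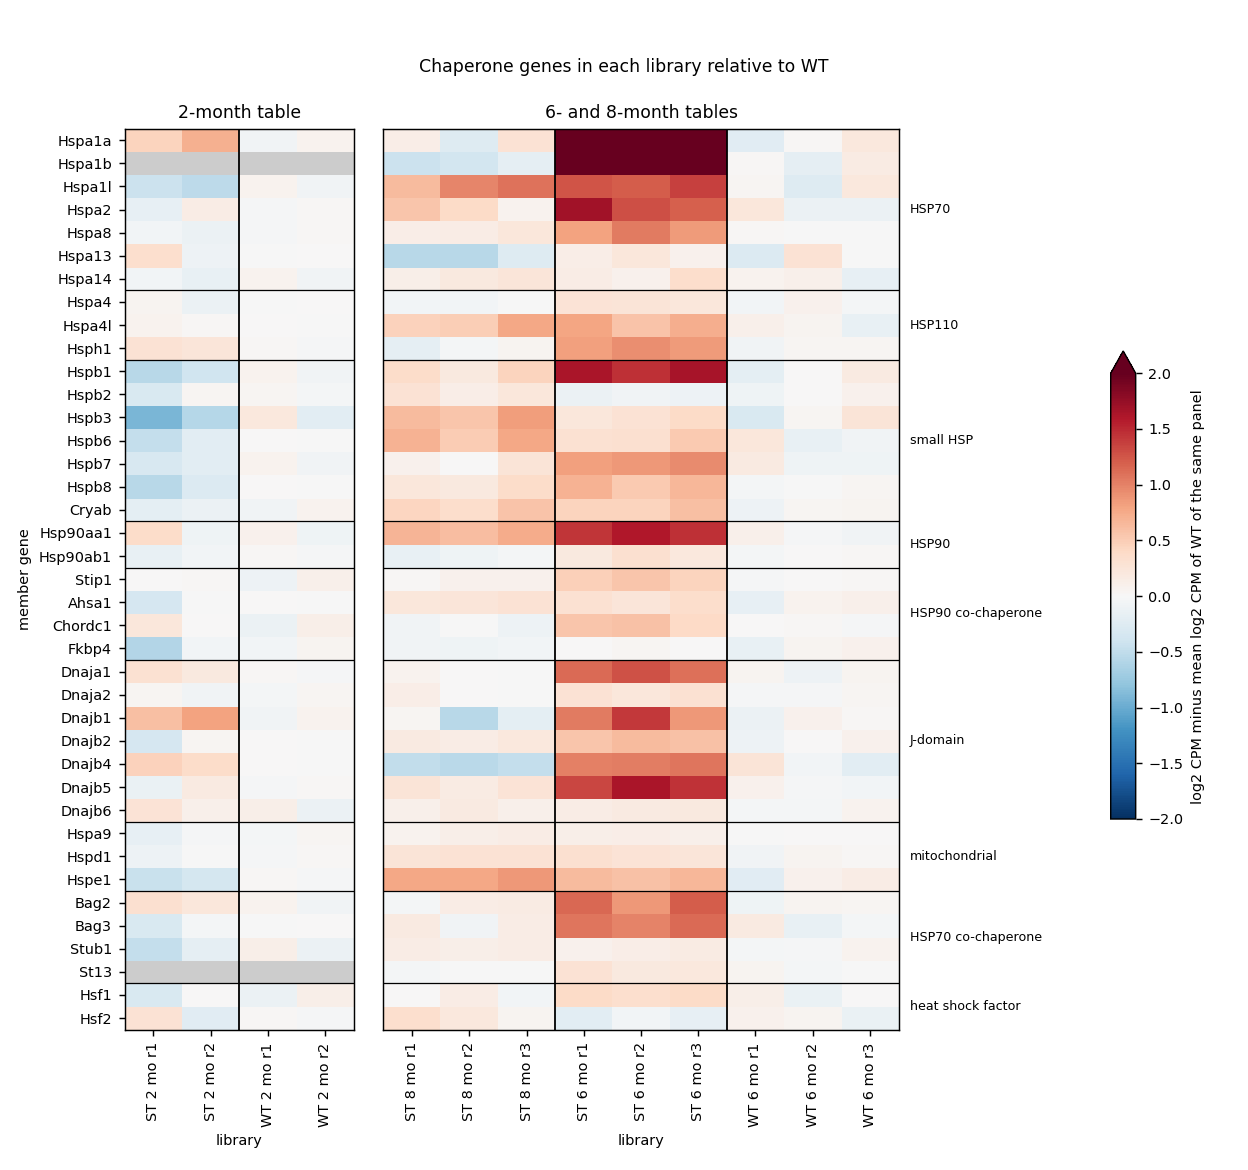
Level of each member in each library as log2 CPM minus the mean log2 CPM of the WT libraries of the same panel, with libraries in columns and members in rows grouped by role. Grey marks Hspa1b and St13, not tested at 2 months, colours end at 2, and the 3 ST libraries of 6 months stand out in red in most rows, with Hspa1a at a fitted log2 fold change of 2.99.

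Among the HSP70 genes the stress-inducible pair had the largest fold changes between ST and WT hearts of 6 months. Hspa1a, an inducible HSP70, had 20.6, 15.8 and 23.1 CPM in ST hearts of 8 months, 144, 172 and 136 CPM in ST hearts of 6 months and 16.0, 19.1 and 21.8 CPM in WT hearts of 6 months. Its near copy Hspa1b had 14.0, 14.5 and 16.5 CPM in ST hearts of 8 months, 113, 163 and 144 CPM in ST hearts of 6 months and 19.0, 16.5 and 21.1 CPM in WT hearts of 6 months. The ST hearts of 6 months lay far above both other groups, which overlapped each other.

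Reads of such near copies can be split between them, and the counts of Hspa1a and Hspa1b were not whole numbers in 12 of 13 libraries, so their separate values are uncertain. Their summed counts, a choice made after seeing the data, gave log2 fold changes of 2.95 (SE 0.114, adjusted p = 4.28e-09, edgeR) for ST against WT at 6 months and -3.06 (SE 0.116, adjusted p = 1.05e-09, edgeR) for ST of 8 against 6 months. Against WT hearts of 6 months the sum in ST hearts of 8 months was at -0.11 (SE 0.112, adjusted p = 0.50, edgeR), which did not pass.

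The constitutive HSP70 gene Hspa8, which carries 2 of the 3-unit elements printed above, had 1775, 1796 and 1889 CPM in ST hearts of 8 months, 2831, 3335 and 2918 CPM in ST hearts of 6 months and 1640, 1602 and 1617 CPM in WT hearts of 6 months. The 3 groups did not overlap, and their order was ST of 6 months, ST of 8 months, WT of 6 months. Its log2 fold change was 0.91 (SE 0.0678, adjusted p = 1.17e-06) for ST against WT at 6 months, -0.74 (SE 0.0621) for ST of 8 against 6 months and 0.18 (SE 0.0555, adjusted p = 0.019) for ST of 8 against WT of 6 months, by edgeR. The last call ended with library totals alone (adjusted p = 0.0838), without ST replicate 3 of 8 months (adjusted p = 0.063) and without WT replicate 2 (adjusted p = 0.064), by edgeR. Its counts were fractional in all 13 libraries.

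Hspa1l and Hspa2, HSP70 genes best known from the testis, were higher in ST than in WT hearts of 6 months by log2 1.27 (SE 0.128) and 1.38 (SE 0.197). Hspa1l counts, too, were fractional in 11 of 13 libraries, and its level in ST hearts of 8 months, at 15.3 to 20.9 CPM, lay above the 8.26 to 11.4 CPM of WT hearts of 6 months by log2 0.92 (SE 0.152). Hspa1l and Hspa2 were lower in ST hearts of 8 than of 6 months, at -0.36 (SE 0.124) and -1.05 (SE 0.207). That call of Hspa1l ended with library totals alone, with DESeq2 and without ST replicate 1 or 3 of 6 months or 1 or 2 of 8 months. Hspa13 and Hspa14 did not pass at 6 months, at 0.14 (SE 0.157) and 0.20 (SE 0.117), and Hspa13 was lower in ST hearts of 8 than of 6 months at -0.60 (SE 0.155), where DESeq2 did not call it (adjusted p = 0.0514).

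All 3 HSP110 genes, whose products release ADP from HSP70, were higher in ST than in WT hearts of 6 months. Hsph1 had 107, 118 and 126 CPM in ST hearts of 8 months, 215, 230 and 219 CPM in ST hearts of 6 months and 115, 125 and 124 CPM in WT hearts of 6 months. The ST hearts of 6 months stood apart, and those of 8 months overlapped WT. The log2 fold change of Hsph1 was 0.87 (SE 0.0683, adjusted p = 1.72e-06, edgeR) at 6 months and -0.92 (SE 0.071) for ST of 8 against 6 months. Hspa4l was higher by 0.69 (SE 0.0967) at 6 months, and in ST hearts of 8 months it was above WT of 6 months by 0.59 (SE 0.104). Between the ST groups Hspa4l was at -0.11 (SE 0.0972, adjusted p = 0.378, edgeR) and did not pass. Hspa4 was higher at 6 months by 0.26 (SE 0.0663), a call that ended with library totals alone (adjusted p = 0.0995, edgeR). In ST hearts Hspa4 was lower at 8 than at 6 months, at -0.30 (SE 0.0554).

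**Figure D3:**
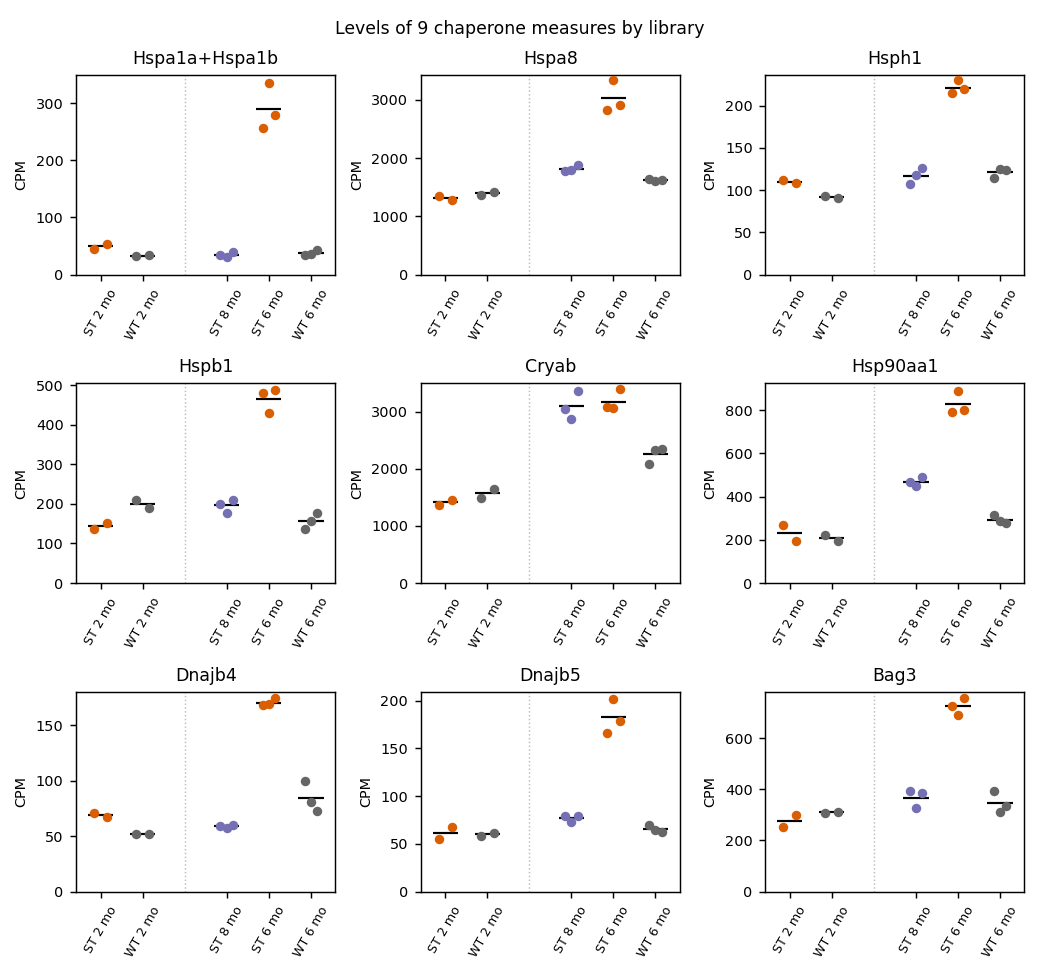
Levels in CPM (y axis, from 0) of 9 chaperone measures in each library (points) with group means (lines), ST left of WT. A dotted line parts the 2-month table, scaled on its own, from the later tables, and Hspa1a and Hspa1b are shown summed, at 257 to 335 CPM in ST and 35.0 to 42.9 CPM in WT hearts of 6 months.

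The small heat shock protein genes split at 8 months. At 6 months 5 of 7 were higher in ST than in WT hearts, led by Hspb1, whose product binds actin filaments and unfolding proteins. Hspb1 had 200, 177 and 211 CPM in ST hearts of 8 months, 479, 429 and 487 CPM in ST hearts of 6 months and 136, 156 and 176 CPM in WT hearts of 6 months. Its log2 fold change was 1.58 (SE 0.0964, adjusted p = 2.04e-07) at 6 months, -1.25 (SE 0.0744) for ST of 8 against 6 months and 0.34 (SE 0.091, adjusted p = 0.0085) for ST of 8 against WT of 6 months, by edgeR. The last call ended without ST replicate 3 of 8 months (adjusted p = 0.061, edgeR).

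Hspb7, a heart and muscle member bound to sarcomeric filaments, followed Hspb1, with 0.88 (SE 0.0745) at 6 months and -0.76 (SE 0.0625) for ST of 8 against 6 months. Hspb8, the partner of Bag3 in clearing damaged proteins, was higher by 0.63 (SE 0.0685) at 6 months and lower, at -0.37 (SE 0.0638) for ST of 8 against 6 months.

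Cryab, the alpha-B crystallin that binds desmin and titin, had 3046, 2876 and 3358 CPM in ST hearts of 8 months, 3075, 3059 and 3401 CPM in ST hearts of 6 months and 2091, 2322 and 2344 CPM in WT hearts of 6 months. Both ST groups lay above WT and overlapped each other. Its counts were fractional in 9 of 13 libraries. The log2 fold change was 0.50 (SE 0.0685) at 6 months, -0.04 (SE 0.0601, adjusted p = 0.616, edgeR) for ST of 8 against 6 months and 0.47 (SE 0.0676) for ST of 8 against WT of 6 months.

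Hspb6, Hspb2 and Hspb3 were higher in ST hearts of 8 than of 6 months, at 0.27 (SE 0.0717), 0.31 (SE 0.0668) and 0.38 (SE 0.0959). Hspb6, a partner of actin-binding proteins in heart muscle, had 1788, 1579 and 1893 CPM in ST hearts of 8 months, 1372, 1384 and 1589 CPM in ST hearts of 6 months and 1293, 999 and 1058 CPM in WT hearts of 6 months. The ST groups overlap in Hspb6, and its call between them ended without ST replicate 1 of 6 months (adjusted p = 0.051, edgeR) and without ST replicate 3 of 8 months (adjusted p = 0.061, edgeR). Hspb2 and Hspb3 did not pass for ST against WT at 6 months, at -0.10 (SE 0.0711) and 0.29 (SE 0.128). At 8 months 6 of 7 small heat shock protein genes, all but Hspb7, were higher than in WT hearts of 6 months, with Hspb3 at 0.68 (SE 0.127) and Hspb6 at 0.66 (SE 0.0853). The call of Hspb2 there, at 0.22 (SE 0.073), ended with library totals alone, with DESeq2 and without each of 4 libraries.

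Both HSP90 genes were higher in ST than in WT hearts of 6 months. Hsp90aa1, the inducible HSP90, had 468, 449 and 490 CPM in ST hearts of 8 months, 794, 891 and 803 CPM in ST hearts of 6 months and 314, 288 and 279 CPM in WT hearts of 6 months. The 3 groups did not overlap. Its log2 fold change was 1.50 (SE 0.0727, adjusted p = 2.71e-08) at 6 months, -0.82 (SE 0.0623) for ST of 8 against 6 months and 0.69 (SE 0.0658, adjusted p = 8.87e-07) for ST of 8 against WT of 6 months, by edgeR. Hsp90ab1, the constitutive form, was higher at 6 months by 0.24 (SE 0.0593, adjusted p = 0.00666, edgeR), a call that ended with library totals alone. In ST hearts Hsp90ab1 was lower at 8 than at 6 months, at -0.33 (SE 0.0527). Counts of both genes were fractional in all 13 libraries.

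Of the HSP90 co-chaperones, Stip1, which links HSP70 to HSP90, Chordc1, and Ahsa1, an activator of the HSP90 ATPase, were higher in ST than in WT hearts of 6 months by 0.50 (SE 0.065), 0.52 (SE 0.0739) and 0.30 (SE 0.0828). The steroid receptor immunophilin gene Fkbp4 was at 0.02 (SE 0.0756, adjusted p = 0.871, edgeR). Stip1 and Chordc1 were lower in ST hearts of 8 than of 6 months, at -0.44 (SE 0.0628) and -0.58 (SE 0.076). The call of Ahsa1 at 6 months ended with library totals alone (adjusted p = 0.081, edgeR) and without ST replicate 3 of 6 months (adjusted p = 0.055, edgeR). Ahsa1 was also above WT of 6 months at 8 months, at 0.26 (SE 0.0777), and lost this call without ST replicate 3 of 8 months and without WT replicate 1.

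J-domain genes, whose products choose clients for HSP70, were higher in ST hearts of 6 months for 6 of 7. Dnajb5 had 78.6, 73.1 and 78.9 CPM in ST hearts of 8 months, 166, 202 and 179 CPM in ST hearts of 6 months and 69.8, 64.2 and 62.7 CPM in WT hearts of 6 months, with log2 1.48 (SE 0.084, adjusted p = 1.1e-07, edgeR) at 6 months. Dnaja1 followed at 1.18 (SE 0.0758), Dnajb1, the main heat-inducible HSP40, at 1.13 (SE 0.136) and Dnajb4 at 1.02 (SE 0.0968). Dnajb2 was at 0.60 (SE 0.07) and Dnaja2 at 0.28 (SE 0.0628), whose call ended with library totals alone (adjusted p = 0.0512, edgeR). Dnajb6, a suppressor of protein aggregation, was at 0.18 (SE 0.0654) and just missed, with an adjusted p of 0.0503 by edgeR.

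Dnajb4 was the 1 member lower in ST hearts of 8 months than in WT hearts of 6 months. It had 59.1, 57.3 and 60.2 CPM in ST hearts of 8 months, 168, 169 and 174 CPM in ST hearts of 6 months and 99.5, 80.7 and 72.3 CPM in WT hearts of 6 months. The groups did not overlap, with WT between the ST groups. The log2 difference was -0.50 (SE 0.0988, adjusted p = 0.000972, edgeR) against WT of 6 months and -1.54 (SE 0.0642, adjusted p = 3.04e-09, edgeR) against ST of 6 months. Against ST hearts of 6 months, Dnajb1, Dnajb5 and Dnaja1 were lower at 8 months, at -1.36 (SE 0.162), -1.25 (SE 0.0815) and -1.16 (SE 0.0703). Dnajb2 and Dnaja2 were lower too, at -0.42 (SE 0.0591) and -0.23 (SE 0.0638). The call of Dnaja2 between the ST groups ended with library totals alone and without ST replicate 2 or 3 of 8 months.

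The 3 mitochondrial chaperones had a median log2 fold change of 0.29 at 6 months. Hspd1 (HSP60) and Hspe1 (HSP10), which form the folding chamber of the matrix, were higher in ST than in WT hearts of 6 months by 0.29 (SE 0.0641) and 0.62 (SE 0.092), while Hspa9, the matrix HSP70, was at 0.12 (SE 0.0563) and did not pass. Hspe1 had 192, 192 and 205 CPM in ST hearts of 8 months, 174, 168 and 178 CPM in ST hearts of 6 months and 95.9, 118 and 124 CPM in WT hearts of 6 months. Both ST groups lay above WT. At 8 months Hspe1 was higher than in WT of 6 months by 0.81 (SE 0.086, adjusted p = 2.7e-06, edgeR), and than in ST of 6 months by 0.18 (SE 0.0605, adjusted p = 0.0317, edgeR), a call that ended with DESeq2, without a filter, with 1 fit over all groups and when any 1 library was left out (adjusted p from 0.050 to 0.128, edgeR). Hspd1 was at -0.0047 (SE 0.0513) between the ST groups.

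HSP70 co-chaperones were higher in ST hearts of 6 months for 3 of 4. Bag3, which with Hspb8 sends damaged sarcomere proteins to autophagy, had 392, 327 and 384 CPM in ST hearts of 8 months, 727, 689 and 758 CPM in ST hearts of 6 months and 392, 313 and 336 CPM in WT hearts of 6 months. Its log2 fold change was 1.07 (SE 0.0828, adjusted p = 1.59e-06, edgeR) at 6 months and -0.98 (SE 0.0705) for ST of 8 against 6 months, and ST hearts of 8 months overlapped WT. Bag2 gave 1.08 (SE 0.105) and -0.99 (SE 0.105), St13, the HSP70-interacting protein, 0.24 (SE 0.0638) and -0.25 (SE 0.06), while the ubiquitin ligase gene Stub1 stood at 0.13 (SE 0.0663) and 0.0032 (SE 0.0609) and passed in neither. The call of St13 at 6 months ended with library totals alone (adjusted p = 0.153, edgeR) and without ST replicate 1 of 6 months (adjusted p = 0.053, edgeR).

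The heat shock factor gene Hsf1 was higher in ST than in WT hearts of 6 months by 0.37 (SE 0.0919, adjusted p = 0.00742, edgeR), and lower at 8 than at 6 months in ST hearts at -0.33 (SE 0.0921), where DESeq2 did not call it (adjusted p = 0.0639). Hsf2 was at -0.14 (SE 0.103) at 6 months and higher at 8 months in ST hearts by 0.34 (SE 0.109), a call that ended with DESeq2 and without each of 4 libraries.

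Of the 31 members with a promoter, all 6 with a 3-unit element were higher in ST than in WT hearts of 6 months, with log2 fold changes of 0.29 to 1.18 and a median of 0.75. Of the 25 without, 17 were higher, with a range of -0.14 to 2.99 and a median of 0.50. The ranges overlap, and the largest value without the element is that of Hspa1a. Of all 39 members 30 were higher, and of all 13253 genes tested 19.9%. The 6 are not independent, since Hspd1 and Hspe1 share the same element. Of members with only 2-unit patterns, Fkbp4, Hspa9 and Dnajb6 did not pass, and the others, Hspb1 and Dnajb1 among them, were higher. A part of either pattern in these values was not tested.

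**Figure D4:**
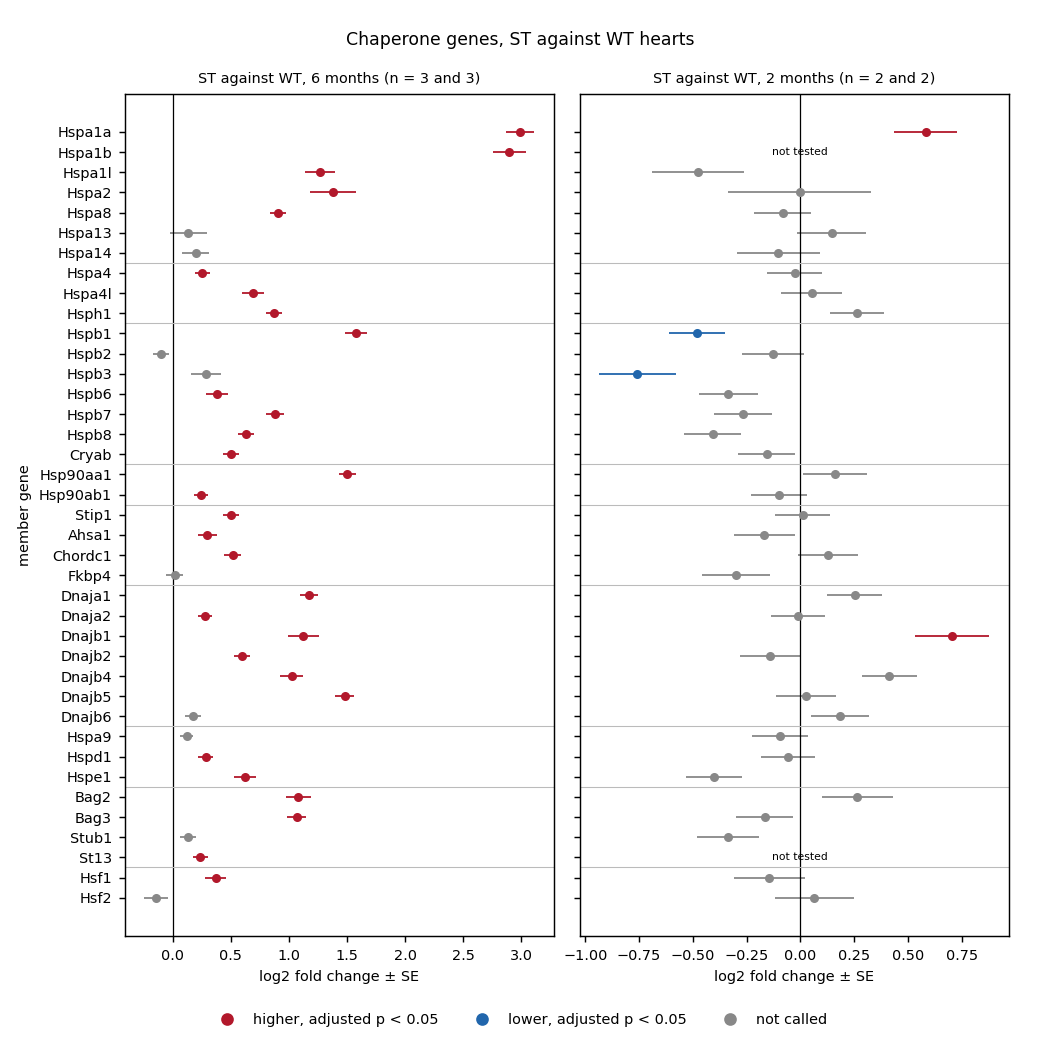
Log2 fold changes with SE of ST against WT hearts for each member, at 6 months (left, 3 and 3 hearts) and 2 months (right, 2 and 2 hearts), on different x scales. At 6 months 30 members are red (higher) and none blue (lower), and at 2 months 2 are red and 2 blue.

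At 2 months few members differed. Of 37 tested, 2 were higher and 2 lower in ST than in WT hearts by edgeR, where 2.7% of 12121 genes were higher, 2.1% lower and 4.8% changed, and the median log2 fold change was -0.08 over the members and -0.00044 over all genes. Hspb1 had 135 and 152 CPM in ST hearts and 211 and 189 CPM in WT hearts, a log2 fold change of -0.48 (SE 0.13, adjusted p = 0.0438, edgeR). Hspb3, a small heat shock protein of muscle, had 17.3 and 21.9 CPM in ST hearts and 37.5 and 27.9 CPM in WT hearts, at -0.76 (SE 0.178, adjusted p = 0.0205, edgeR). All 7 small heat shock protein genes had a log2 fold change below 0, from -0.76 to -0.13, of which 5 did not pass. Over all genes 6055 of 12121 were above 0. The 7 were read from the same libraries, and without ST replicate 1 Hspb2 was at 0.038.

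Higher at 2 months were Hspa1a and Dnajb1. Hspa1a had 45.0 and 53.8 CPM in ST hearts and 31.5 and 34.5 CPM in WT hearts, a log2 fold change of 0.58 (SE 0.146, adjusted p = 0.0279, edgeR). Dnajb1 had 20.6 and 23.5 CPM in ST hearts and 12.8 and 14.3 CPM in WT hearts, at 0.71 (SE 0.172, adjusted p = 0.025, edgeR).

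These 4 calls rest on single libraries. Those of Hspa1a, Hspb3 and Dnajb1 also ended with DESeq2, while limma-voom called 2 members higher and 2 lower. Without WT replicate 1 0 members were called, at adjusted p of 0.300 to 0.549 for the 4 genes, and without ST replicate 2 4 were higher and 7 lower. Without WT replicate 2 0 were higher and 1 lower, without ST replicate 1 2 were higher and 1 lower, and DESeq2 called 0 higher and 1 lower. At an unadjusted p under 0.05, met by 18.6% of genes, 3 members were higher and 7 lower. The ST and WT values did not overlap in 20 of 37 members, against 48.9% of genes. Hspa1b had 1 to 4 counts per library at 2 months and was below the filter. At 6 months both genes of the pair had levels of 16.0 to 21.8 CPM in WT hearts.

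The difference between the ST against WT values of 6 and 2 months was tested as 1 contrast over 10 libraries. The spread of each gene was shared by both times in this fit, so the uncertainty of the 2-month hearts may be understated. For Hspa8 the SE was 0.116, against 0.131 for ST against WT at 2 months alone. The difference was positive past the threshold for 25 of 38 members and negative for 0, by edgeR. Of 12658 genes 10.2% were positive, 12% negative and 22.2% past in either direction. At an unadjusted p under 0.05, met by 35.3% of genes, 29 were positive and 0 negative, and DESeq2 called 26 positive and 0 negative. Without WT replicate 1 of 2 months 17 members were positive. Hspa1a gave 2.40 (SE 0.192, adjusted p = 4.32e-07, edgeR). With 1 to 4 counts of Hspa1b per library at 2 months, Hspa1a alone may not be the same measure at both times. Summed, the pair gave 2.35 (SE 0.187, adjusted p = 3.93e-07, edgeR), and Hspa1b alone 2.46 (SE 1.19), which did not pass. Hspb1 gave 2.05 (SE 0.156, adjusted p = 2.44e-07, edgeR), and its value was above 0 at 6 months and below 0 at 2 months. Dnajb1, called at both times, gave 0.41 (SE 0.223, adjusted p = 0.205, edgeR). The transgene stood at 11.0 to 11.2 CPM in ST hearts of 2 months and 90.4 to 209 CPM in those of 6 months. In ST hearts of 8 months, where most members were lower than at 6 months, the transgene was at 116 to 180 CPM. Its part in the difference was not tested.

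**Figure D5:**
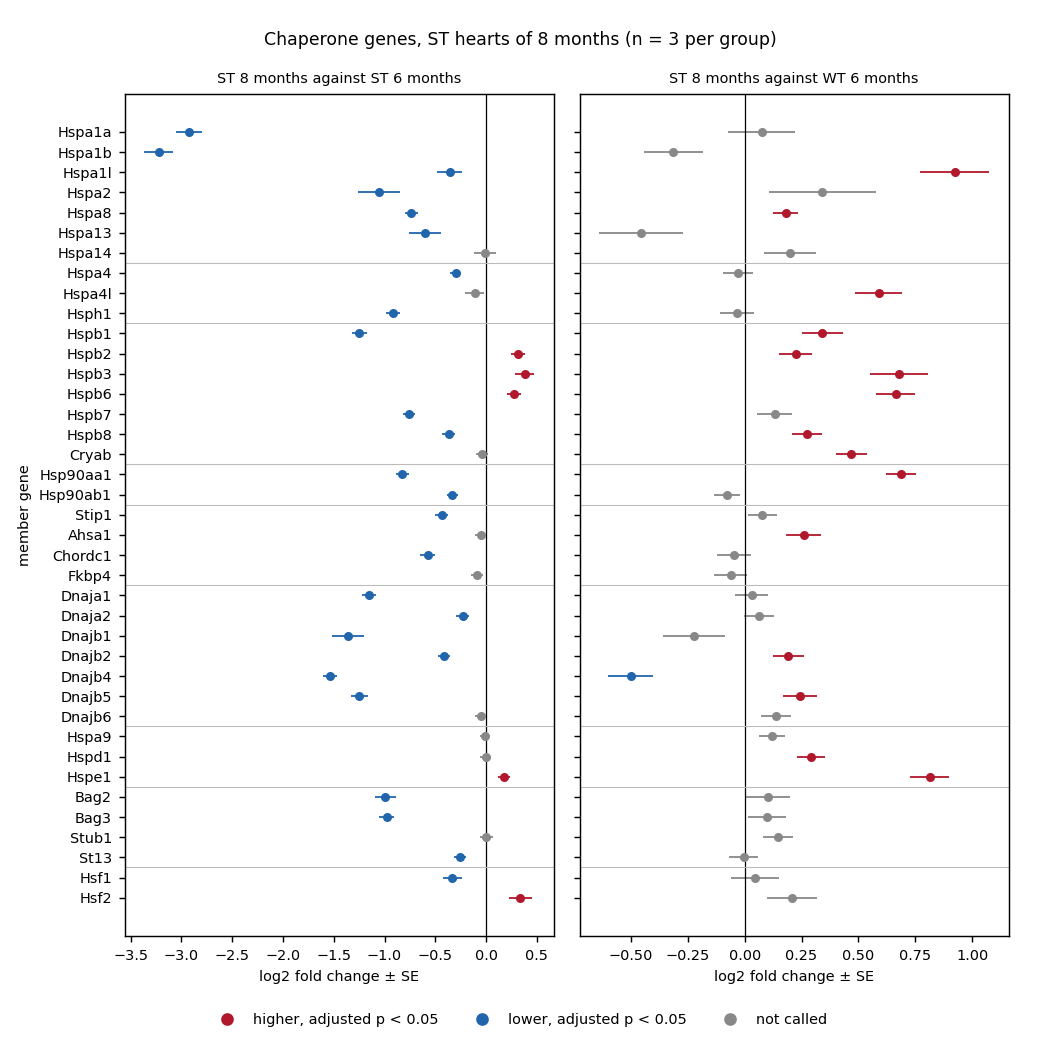
Log2 fold changes with SE of ST hearts of 8 months against ST hearts of 6 months (left) and WT hearts of 6 months (right) for each member, 3 hearts in each group, on different x scales. On the left 25 members are blue (lower) and 5 red (higher), on the right 15 are red and Dnajb4 alone is blue.

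Other chaperone genes had smaller median fold changes at 6 months than the members. The members and these lists were chosen with earlier results of these data known, so that order is a description only. Of 8 genes of the cytosolic chaperonin, which folds actin and tubulin, 6 were higher and 0 lower in ST than in WT hearts of 6 months, with Cct3 at 0.41 (SE 0.0667) and a median of 0.25, and 4 were lower and 0 higher in ST hearts of 8 than of 6 months. Of 13 other HSP90 helpers 5 were higher and 0 lower at 6 months, with a median of 0.10. Of 20 other J-domain and HSP70 helpers tested 8 were higher and 2 lower, with a median of 0.17. Of 7 other mitochondrial chaperones and proteases 3 were higher and 0 lower, with a median of 0.26.

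Genes outside the cytosol and of other kinds moved with the members at 6 months, and their part in the result was not tested. Of 13 chaperones of the endoplasmic reticulum 10 were higher and 0 lower in ST than in WT hearts, with Hspa5 (BiP) at 0.63 (SE 0.084), and 12 were lower and 0 higher in ST hearts of 8 than of 6 months. All 16 immediate early genes, which cells switch on within minutes of many stimuli, were higher at 6 months, with a median of 3.10, and all 16 lower in ST hearts of 8 than of 6 months. Their summed level was 408 to 428 CPM in ST hearts of 8 months, 1599 to 1785 CPM in ST hearts of 6 months and 350 to 375 CPM in WT hearts of 6 months.

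Cell type markers shifted too. At 6 months 6 of 8 markers listed for smooth muscle and pericytes were higher, with a summed level of 2770 to 3179 CPM in ST and 2258 to 2486 CPM in WT hearts. That list includes Des, a gene also of heart muscle, so its sum does not measure these cells alone. Higher, too, were 5 of 5 erythroid markers tested, at 672 to 747 CPM in ST and 373 to 496 CPM in WT hearts. Fibroblast markers were lower for 4 and higher for 3 of 8, at 978 to 1041 CPM in ST and 1211 to 1290 CPM in WT hearts. Macrophage markers were lower for 5 of 8 in ST hearts of 8 than of 6 months, at 70.3 to 82.4 CPM in ST hearts of 8 months and 118 to 163 CPM in ST hearts of 6 months. The summed neutrophil markers did not exceed 4.91 CPM in any library of 6 or 8 months, with Mmp8 at 0 in all WT hearts of 6 months and all ST hearts of 8 months. None of these shifts was removed from the values above, and their part in the results was not tested.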

How the data were processed

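The deposited values are expected counts per gene, in 3 tables with 13 sample columns in all, each of which was used. They were unscaled, and 4.83% to 9.17% of the values in a library were not whole. The tool behind them is not named in the labels. Mouse builds (GRCm38, mm10) stand in the submitters' processing notes, although the gene names are those of the rat. After rounding, each comparison was fitted on its own libraries and on names shared by its tables, with filterByExpr, TMM and the quasi-likelihood F test of edgeR 4.0.16 (R 4.3.3), two-sided. P-values were adjusted by Benjamini-Hochberg over all genes tested and called at 0.05. The standard error (SE) of a log2 fold change is its size over the root of F. Levels in CPM use TMM factors, for the 2-month libraries alone and for those of 6 and 8 months together. Such levels of 2 months are therefore not set against later ones. Transgene levels in CPM are per library total, without these factors. Alternatives were library totals, RLE factors, no filter, a mean of at least 5 CPM, DESeq2 1.42.0, limma-voom (limma 3.58.1), a replicate block, 1 fit over all groups, TMM without chaperones, each library left out, and Hspa1a with Hspa1b summed, the last added after seeing the data. The procedure was run on simulated counts with the same spread for all genes. That setting is simpler than these libraries, and no result rests on it. Libraries of a group differed beyond counting noise (chi-square per gene of 1.85 to 11.5). At 6 months ST replicate 2 was at 6.36 and 7.97 from replicates 1 and 3, which were at 1.85 from each other. WT replicate 1 was at 7.83 and 6.95 from replicates 2 and 3, which were at 2.04 from each other. Without either of these libraries 30 members were higher in ST than in WT hearts of 6 months. P-values measure the spread between these samples, and the limit for a count of 0 covers counting error only. The members, gene lists and comparisons were chosen with earlier results of these data known. All 39 members are accounted for, and examples from other lists were chosen after their values were seen. Promoter sequences are from RefSeq, assembly GRCr8.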

Additional observations from a re-analysis of the deposited data

Results flagged for a closer look

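The difference between ST and WT hearts was tested for a change between the times, as the log2 fold change at 6 months minus that at 2 months, and 25 of 38 members passed (edgeR quasi-likelihood, adjusted p from 2.44e-07 to 0.0469). It was above 0 in all 25. Among HSP70 and HSP110 genes it was 2.40 for Hspa1a (2.35 with Hspa1b summed), 1.74 for Hspa1l, 1.38 for Hspa2, 0.98 for Hspa8, 0.63 for Hspa4l and 0.60 for Hsph1. Among small heat shock protein genes it was 2.05 for Hspb1, 1.04 for Hspb3, 0.70 for Hspb6, 1.14 for Hspb7, 1.03 for Hspb8 and 0.65 for Cryab. For HSP90 genes and their co-chaperones it was 1.33 for Hsp90aa1, 0.33 for Hsp90ab1, 0.48 for Stip1 and 0.46 for Ahsa1. J-domain genes gave 0.91 for Dnaja1, 0.73 for Dnajb2, 0.60 for Dnajb4 and 1.44 for Dnajb5. The mitochondrial pair gave 0.33 for Hspd1 and 1.01 for Hspe1, and the HSP70 co-chaperones 0.81 for Bag2, 1.22 for Bag3 and 0.46 for Stub1.

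The calls of Hsp90ab1 and Hspd1 ended when any 1 of 9 libraries was left out, that of Ahsa1 for any of 7 and that of Stub1 for any of 5, and all 4 ended with library totals alone. Without WT replicate 1 of 2 months the calls of Hspa2, Hspb3, Dnajb4 and Bag2 also ended, without ST replicate 1 of 2 months that of Hspa2, and without WT replicate 2 of 2 months that of Stip1. The 2-month side rests on 2 ST and 2 WT hearts, and the spread of each gene in this fit is shared with the 6-month hearts. Stub1 and Hspb3 did not pass at 6 months alone, at 0.13 and 0.29, and were at -0.34 and -0.76 at 2 months. Groups of 2 or 3 hearts are too small for a test of single outlying samples.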

How the results depend on the processing

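For ST against WT at 2 months, with DESeq2 0 members were higher and 1 lower, and 355 genes were called. Without a filter 1019 genes were called, and with 1 fit over all groups 5 members were lower and 1237 genes called. Leaving out single libraries gave 0 to 4 members higher, 0 to 7 lower and 271 to 2013 genes called, lowest without WT replicate 1 and highest without ST replicate 2. For the difference of 6 minus 2 months it gave 1558 to 3197 genes called.

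For ST of 8 against 6 months, members higher were 3 with DESeq2 and 2 to 4 with single libraries left out. Against WT of 6 months at 8 months they were 9 to 14 with single libraries left out, and members lower were 1 to 2, against 4 with library totals alone, 2 without a filter and 2 with 1 fit over all groups. At 6 months library totals alone gave 1 member lower. The cause of these shifts was not tested.

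Over 2733 values of single members under 23 alternatives, 2527 kept direction and side of the threshold, 112 lost their call, 32 gained one and 62 changed sign. None of the 62 was called under either setting, and the largest was 0.22 in size. At 2 months Hspa2 was at 0.00036 with DESeq2 and 0.0030 without a filter. With single libraries left out, the lowest and highest log2 values at 2 months were -0.15 and 0.15 for Hspa2, -0.099 and 0.34 for Hspa13, -0.11 and 0.051 for Hspa4, -0.31 and 0.038 for Hspb2, -0.086 and 0.37 for Hsp90aa1, -0.082 and 0.097 for Stip1, -0.073 and 0.046 for Dnaja2, -0.33 and 0.034 for Dnajb2, -0.13 and 0.17 for Dnajb5, -0.30 and 0.0097 for Hsf1, and -0.22 and 0.28 for Hsf2. At 6 months they were -0.057 and 0.059 for Fkbp4, which library totals alone put at -0.096.

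For ST of 8 against 6 months, library totals alone gave 0.050 for Hspa14, 0.019 for Cryab, 0.011 for Ahsa1, 0.014 for Dnajb6, 0.049 for Hspa9 and 0.056 for Hspd1, and a mean of at least 5 CPM gave 0.0049 for Hspd1. Stub1 was at -0.0050 with DESeq2, -0.0049 with RLE factors, -0.0030 with TMM without chaperones and -0.020 without a filter. With single libraries left out the range was -0.069 to 0.065 for Hspa14, -0.11 to 0.0035 for Cryab, -0.034 to 0.0031 for Hspa9, -0.030 to 0.0075 for Hspd1 and -0.025 to 0.016 for Stub1.

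For ST of 8 against WT of 6 months, library totals alone gave -0.034 for Dnaja1, -0.0026 for Dnaja2 and -0.018 for Hsf1, and the summed Hspa1a and Hspa1b were at -0.11. With single libraries left out the range was -0.056 to 0.22 for Hspa1a, -0.065 to 0.016 for Hspa4, -0.092 to 0.024 for Hsph1, -0.021 to 0.062 for Dnaja1, -0.023 to 0.011 for St13 and -0.017 to 0.099 for Hsf1. In the difference of 6 minus 2 months it was -0.22 to 0.22 for Hspa13, -0.15 to 0.20 for Hspb2, -0.15 to 0.087 for Dnajb6 and -0.44 to 0.072 for Hsf2, and library totals alone put Hspb2 at -0.058.

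Samples with the same replicate number correlated in their deviations at 0.0039 to 0.18, and those with unlike numbers at -0.11 to 0.067. The former were not over 0.1 in every pair, so the numbers were not taken to pair the samples. With a replicate block 2 members were higher and 2 lower at 2 months, 32 and 0 at 6 months, 5 and 25 for ST of 8 against 6 months, 15 and 1 for ST of 8 against WT of 6 months, and 25 and 0 in the difference, where Hspd1 lost its call. At 4.70 to 5.57 M counts, the libraries of 8 months limit low genes such as Hspa2, and 2 hearts a group limit the 2-month values.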

Other observations

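Some chaperone-related genes outside the list are given here, of which Hspbap1 moved opposite to most members. Hspbap1, which binds Hspb1, was lower in ST than in WT hearts of 6 months by edgeR (log2 -1.25, SE 0.208, adjusted p = 0.000607) and higher in ST hearts of 8 than of 6 months (0.87, SE 0.239). Fkbp5, a glucocorticoid-responsive HSP90 immunophilin, was higher in ST than in WT hearts of 6 months (0.52, SE 0.0643) and lower in ST hearts of 8 months than in ST hearts of 6 months (-1.99, SE 0.0722) and WT hearts of 6 months (-1.46, SE 0.0788). Of 5 prefoldin genes, whose products deliver actin and tubulin to the chaperonin, 2 were higher in ST than in WT hearts of 6 months and 4 were higher in ST hearts of 8 months than in WT hearts of 6 months, with Pfdn1 at 0.55 (SE 0.0779) and Pfdn2 at 0.54 (SE 0.0929).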
